A study of Acipenser baerii with 14 samples.

Results

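The channel genes *cacna1d*, *kcna5* and *kcnab3* were followed contig by contig in the lateral line of Siberian sturgeon (*Acipenser baerii*) larvae. The members are all contigs whose protein match carries the name CACNA1D, KCNA5 or KCNAB3. A contig here is a gene of the Trinity assembly, the unit that was counted, which can join several assembled transcripts. The members are 11 of the 23448 contigs in the count table: 8 of *cacna1d*, 1 of *kcna5* and 2 of *kcnab3*. RNA was sequenced from the 2 kinds of lateral line organ, the electrosensory ampullary organs (AO) and the mechanosensory neuromasts (NM), and from general epithelium (EP), with 2 libraries in each of 7 groups. The groups were untreated AO, AO at 12 h post treatment (hpt), AO at 24 hpt, untreated NM, NM at 12 hpt, NM at 24 hpt, and EP, which came from untreated larvae. Treated larvae had been kept for 1 h in 200 µM neomycin, an aminoglycoside antibiotic that kills hair cells. AO and NM came from the ventral side of the head and EP from the ventral side of the trunk of larvae at 10 days post hatching. Each condition was 1 pool of tissue from many larvae, divided before RNA extraction, so the spread between replicates is technical from that step on and does not include the spread between larvae. The dissected pieces hold receptor cells, supporting cells and whatever tissue was lifted with them, and in such bulk samples fewer cells of a type and less RNA per cell cannot be told apart.

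Voltage-gated calcium channels open when a receptor cell is depolarized and let in the calcium that releases transmitter at its ribbon synapses. *cacna1d* encodes the pore-forming subunit of an L-type channel of this kind, which mammalian inner hair cells use for transmitter release and which skate electroreceptors use to sense the electric field. *kcna5* encodes a pore-forming subunit of the shaker family of voltage-gated potassium channels, which return the membrane to rest, and *kcnab3* encodes a cytoplasmic beta subunit that binds channels of that family. In paddlefish, a relative of sturgeons, transcripts of *kcna5* and *kcnab3* have been described in ampullary organs.

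Of the 11 contigs, 8 were well covered. These are TRINITY_DN112955_c2_g1, TRINITY_DN112955_c2_g3, TRINITY_DN117567_c2_g1, TRINITY_DN118519_c3_g1 and TRINITY_DN95551_c3_g1 of *cacna1d*, TRINITY_DN119466_c5_g1 of *kcna5*, and TRINITY_DN113107_c0_g1 and TRINITY_DN113107_c0_g3 of *kcnab3*. Each of these 8 had at least 63.9 counts over both libraries in every organ group. The same 8 contigs were those called higher in untreated AO than in EP, as given below. The other 3 contigs, all of *cacna1d*, had few counts, at most 41.8 over both libraries of a group. Of these, 1 (TRINITY_DN52149_c0_g1) was too low to be tested, so 10 of 11 entered the tests. Contigs with 1 name may be gene copies, alleles or pieces of 1 transcript that share reads, and are therefore not independent witnesses of each other. Levels are given as CPM, counts scaled to library size with factors from the trimmed mean of M-values (TMM); since contig lengths were not used here, a CPM is compared between groups and not between contigs. To be called higher or lower, a contig had to change by more than 1 on the log2 scale with an FDR under 0.01, from the quasi-likelihood test of edgeR, adjusted by Benjamini-Hochberg over 21978 contigs. All FDR values below come from that test unless another is named. With 2 libraries against 2, no permutation could reach a two-sided p below 0.333. Counts of members at an unadjusted p under 0.05 from the same test are given without the share of all contigs. That share was not computed, so these counts cannot be set against a background. The same holds where library pairs of a summed name or of a ratio are said not to overlap. For single contigs, such separation in 1 direction was common, at 25.7% to 41.5% of all contigs in the comparisons where it is given.

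The 14 libraries held 7121038 to 10067958 expected counts each, and across contigs the 2 libraries of a group correlated with r of 0.979 to 0.986. Both NM libraries at 24 hpt stood apart by their lens markers, whose values are given with the results.

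The organs carried more RNA of the 3 channels than EP in every comparison. For *cacna1d*, the CPM summed over its contigs was 46.3 and 40.1 in the 2 libraries of untreated AO, 26.4 and 23.5 in untreated NM, and 9.45 and 7.69 in EP. *kcna5* stood at 10.9 and 9.21 CPM in untreated AO, at 6.24 and 6.74 CPM in untreated NM, and at 0.937 and 0.643 CPM in EP. *kcnab3* summed to 73.7 and 69.5 CPM in untreated AO, 43.8 and 55.0 CPM in untreated NM, and 5.14 and 5.64 CPM in EP. No library of an untreated organ overlapped with EP for any of the 3 names, a statement that has no background share.

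Between untreated AO and EP, 8 of 10 tested contigs were called higher and 0 lower, where 7.46% of all contigs were called higher and 6.81% lower. The log2 fold change of AO over EP was 2.29 ± 0.13 (SE) to 2.61 ± 0.20 for the 5 covered *cacna1d* contigs, 3.60 ± 0.24 for *kcna5*, and 3.46 ± 0.18 and 4.28 ± 0.31 for the *kcnab3* contigs, with FDR of 8.8e-05 or less. Between untreated NM and EP the same 8 contigs were called higher and 0 lower, where 4.06% of all contigs were called higher and 9.19% lower, with log2 fold changes of 1.32 ± 0.14 to 1.85 ± 0.31 for *cacna1d*, 2.97 ± 0.26 for *kcna5*, and 2.75 ± 0.18 for *kcnab3* DN113107_c0_g3, the lower of its contigs. Without EP replicate 2, DN95551_c3_g1 was no longer called in NM over EP (log2 fold change 1.71, FDR 0.013). A fit on the 2 groups alone called 5 of the 8 in NM over EP, without *cacna1d* TRINITY_DN112955_c2_g1 (FDR 0.012), TRINITY_DN118519_c3_g1 (FDR 0.015) and TRINITY_DN95551_c3_g1 (FDR 0.011). The smallest ratios of an organ to EP were thus those of *cacna1d*. Muscle markers moved with these comparisons, at 272 and 290 CPM in untreated AO, 81.2 and 81.8 CPM in untreated NM, and 28826 and 29092 CPM in EP, whose epithelium markers summed to 21493 and 21772 CPM; the part of muscle RNA in the EP values was not tested.

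After neomycin the covered contigs stayed above EP as well. At both times, 8 of 10 contigs were called higher and 0 lower than in EP in both organs, where 12.5% (AO at 12 hpt), 7.16% (NM at 12 hpt), 12.8% (AO at 24 hpt) and 15% (NM at 24 hpt) of all contigs were called higher and 5.81%, 3.29%, 4.41% and 9.94%, in the same order, lower. In NM at 12 hpt over EP a fit on the 2 groups alone called 6 of the 8, without *cacna1d* TRINITY_DN112955_c2_g1 and TRINITY_DN118519_c3_g1 (FDR 0.011 for both). These 4 comparisons and the 2 of untreated organs share the same EP libraries. EP was untreated in each of them, so neomycin and organ are not separated there.

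**Figure D1:**
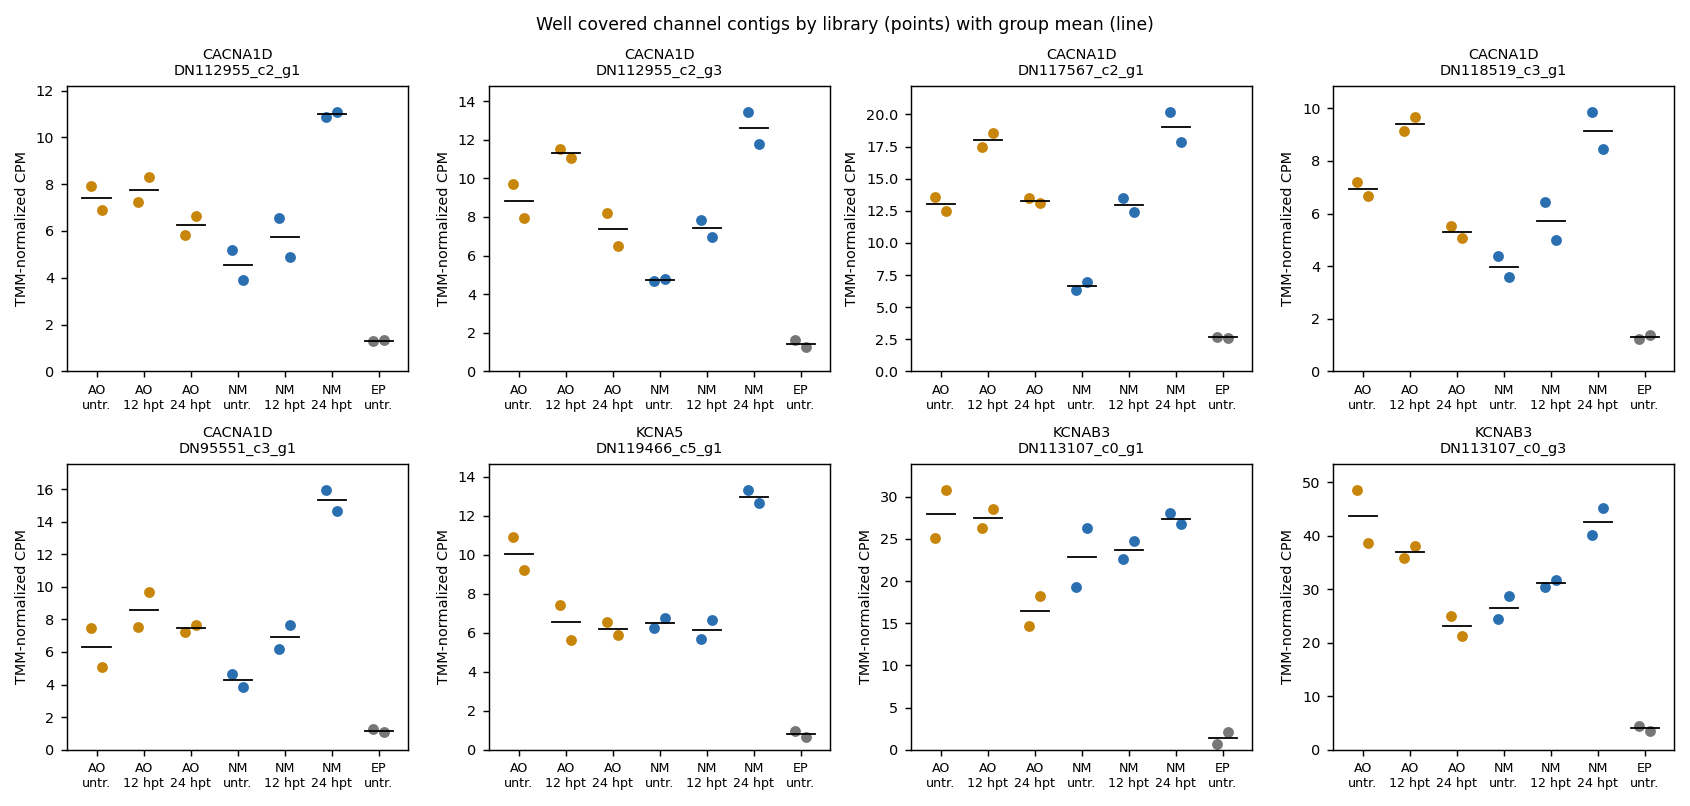
TMM-normalized CPM of the 8 well covered contigs in each of the 14 libraries (points, 2 a group) with the group mean (line), for AO (ochre), NM (blue) and EP (grey); each vertical axis starts at 0. EP is lowest in all 8 panels. These 8 are well covered by their counts in the organ groups and are those called higher in untreated AO than in EP, so this is no separate result. In the sparse contigs DN100753_c3_g4 and DN52149_c0_g1, not shown, the EP mean was above that of untreated AO. The NM libraries at 24 hpt are the highest point pair for *kcna5* (13.3 and 12.6 CPM) and for *cacna1d* DN95551_c3_g1 (16.0 and 14.7 CPM).

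Without treatment, AO stood above NM for all 8 covered contigs, by less than the 2-fold that a call needs. *cacna1d* DN117567_c2_g1 had 13.6 and 12.5 CPM in untreated AO, against 6.36 and 6.94 CPM in untreated NM, a log2 fold change of 0.97 ± 0.11 (SE) at an FDR of 0.00023. *kcnab3* DN113107_c0_g3 had 48.6 and 38.7 CPM in AO, against 24.4 and 28.7 CPM in NM, a log2 fold change of 0.71 ± 0.14 at an FDR of 0.0040. For *kcna5* the AO values of 10.9 and 9.21 CPM against 6.24 and 6.74 CPM in NM gave 0.63 ± 0.17 at an FDR of 0.019. Of the 10 tested contigs, 8 had both AO libraries above both NM libraries, where 41.5% of all contigs did; the covered contig that overlapped was *kcnab3* DN113107_c0_g1 with 25.1 and 30.8 CPM in AO and 19.4 and 26.3 CPM in NM.

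Of the 10 tested contigs, 0 were called in untreated AO over untreated NM, where 5.2% of all contigs were called higher and 0.828% lower. At an FDR under 0.01 with any fold, 4 were higher in AO (9.15% of all contigs). At an unadjusted p under 0.05, 8 were, a count without a background share. The count was also 0 by DESeq2's Wald test and by edgeR's exact test. DN117567_c2_g1 passed the threshold without NM untreated replicate 2 (log2 fold change 1.04, FDR 0.0025), and together with DN112955_c2_g3 (1.03, FDR 0.0058) without AO untreated replicate 2 (1.03, FDR 0.0014). The median log2 fold change of the tested members was 0.71, against 0.13 over all contigs.

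In NM the calcium channel was at its highest at 24 hpt. Summed *cacna1d* stood at 26.4 and 23.5 CPM in untreated NM, 41.5 and 38.6 CPM at 12 hpt, and 73.1 and 66.7 CPM at 24 hpt, so that the 3 pairs of libraries did not overlap. *kcna5* followed another course, with 6.24 and 6.74 CPM in untreated NM, 5.66 and 6.63 CPM at 12 hpt, and 13.3 and 12.6 CPM at 24 hpt, where only the last pair stood apart. *kcnab3* summed to 43.8 and 55.0 CPM in untreated NM, 53.0 and 56.6 CPM at 12 hpt, and 68.2 and 71.8 CPM at 24 hpt, again with only the last pair apart from both others.

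At 12 hpt, 0 of 10 contigs were called in NM over untreated NM, where 11.1% of all contigs were called higher and 1.32% lower. By unadjusted p under 0.05, 4 were higher and 0 lower, and DESeq2's Wald test and edgeR's exact test called 0 as well. The nearest was *cacna1d* DN117567_c2_g1, which had 13.5 and 12.4 CPM at 12 hpt, against 6.36 and 6.94 CPM in untreated NM, a log2 fold change of 0.96 ± 0.11 (SE) at an FDR of 0.00011. It passed the fold minimum without NM untreated replicate 2 (1.04, FDR 0.0011) or NM 12 hpt replicate 2 (1.02, FDR 0.00077). The other 4 covered *cacna1d* contigs lay between 0.32 ± 0.19 and 0.74 ± 0.22, *kcna5* at -0.07 ± 0.18, and the *kcnab3* contigs at 0.05 ± 0.21 and 0.22 ± 0.14.

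At 24 hpt, 5 of 10 contigs were called higher in NM and 0 lower, where 16.1% of all contigs were called higher and 5.01% lower. These 5 are the covered contigs of *cacna1d*. DN95551_c3_g1 rose to 16.0 and 14.7 CPM in NM at 24 hpt, against 4.66 and 3.84 CPM in untreated NM, a log2 fold change of 1.86 ± 0.20 (SE; FDR 3.3e-05). DN117567_c2_g1 rose to 20.2 and 17.8 CPM, against 6.36 and 6.94 CPM in untreated NM (1.52 ± 0.11, FDR 1.2e-06), and DN112955_c2_g3 to 13.5 and 11.8 CPM, against 4.71 and 4.77 CPM (1.41 ± 0.16, FDR 4.1e-05). DN112955_c2_g1 had 10.9 and 11.1 CPM against 5.18 and 3.89 CPM (1.28 ± 0.18), and DN118519_c3_g1 had 9.87 and 8.44 CPM against 4.38 and 3.57 CPM (1.21 ± 0.16). Of the 10 tested contigs, 9 had both libraries at 24 hpt above both untreated libraries, where 35.6% of all contigs did. The same NM libraries at 24 hpt held 2234 and 2237 CPM of lens markers, against 3.10 and 3.91 CPM in untreated NM. Their neuron markers averaged 1698 CPM, against 149 CPM in untreated NM. The part of lens or neuron markers in these values was not tested.

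*kcna5* in NM at 24 hpt lay on the fold minimum. Its log2 fold change over untreated NM was 1.00 ± 0.17 (SE; 95% interval 0.63 to 1.37) at an FDR of 0.00059, just too small to be called. It was called with DESeq2 size factors in place of TMM (1.04), with DESeq2's Wald test (1.04, FDR 0.0031), with edgeR's exact test (1.05), in a fit on the 2 groups alone (1.06), and without NM untreated replicate 2 (1.07) or NM 24 hpt replicate 2 (1.03). The *kcnab3* contigs moved less in the same direction: DN113107_c0_g3 had 40.2 and 45.1 CPM at 24 hpt, against 24.4 and 28.7 CPM in untreated NM (0.68 ± 0.14, FDR 0.0020), and DN113107_c0_g1 had 28.0 and 26.7 CPM against 19.4 and 26.3 CPM (0.25 ± 0.20, FDR 0.33; 95% interval -0.20 to 0.70). The median over the 10 tested members was 1.24, against -0.03 over all contigs.

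From 12 to 24 hpt in NM, 2 of 10 contigs were called higher and 0 lower, where 9.67% of all contigs were called higher and 5.59% lower. They were *kcna5*, at 13.3 and 12.6 CPM at 24 hpt against 5.66 and 6.63 CPM at 12 hpt (log2 fold change 1.06 ± 0.17, FDR 0.00060), and *cacna1d* DN95551_c3_g1, at 16.0 and 14.7 CPM against 6.18 and 7.65 CPM (1.13 ± 0.19, FDR 0.0010). Without NM 12 hpt replicate 1 neither was called (0.96 and 0.99), and *cacna1d* DN112955_c2_g1 was (1.17, FDR 0.0018). DN112955_c2_g1 had 10.9 and 11.1 CPM at 24 hpt against 6.56 and 4.91 CPM at 12 hpt (0.96 ± 0.17). Marker sums differed between the same NM groups. Lens averaged 5.06 CPM at 12 hpt and 2235 CPM at 24 hpt, and neuron markers 480 and 1698 CPM. Muscle averaged 7996 CPM at 12 hpt and 274 CPM at 24 hpt, liver markers 239 and 9.44 CPM, and hair cell markers 350 and 368 CPM. The part of these markers in the 2 calls was not tested.

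In AO the course was different, and no contig of the 3 genes was called at either time. Summed *cacna1d* was 46.3 and 40.1 CPM in untreated AO, 55.3 and 62.5 CPM at 12 hpt, and 41.1 and 41.1 CPM at 24 hpt, so the 12 hpt pair stood above the others and the untreated and 24 hpt pairs overlapped. *kcna5* was 10.9 and 9.21 CPM in untreated AO, 7.43 and 5.65 CPM at 12 hpt, and 6.56 and 5.85 CPM at 24 hpt, with the untreated pair on top. *kcnab3* summed to 73.7 and 69.5 CPM in untreated AO, 62.1 and 66.7 CPM at 12 hpt, and 39.6 and 39.4 CPM at 24 hpt, which placed the 3 pairs in order of time without overlap.

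At 12 hpt, 0 of 10 contigs were called in AO over untreated AO, where 9.84% of all contigs were called higher and 2.21% lower. By unadjusted p under 0.05, 4 were higher and 1 lower, and DESeq2's Wald test and edgeR's exact test also called 0. *cacna1d* DN117567_c2_g1 had 17.5 and 18.6 CPM at 12 hpt against 13.6 and 12.5 CPM in untreated AO, a log2 fold change of 0.47 ± 0.10 (SE; FDR 0.0033). *kcna5* had a log2 fold change of -0.62 ± 0.17 (FDR 0.014). The *kcnab3* contigs gave -0.03 ± 0.20 and -0.24 ± 0.13.

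At 24 hpt, 0 of 10 contigs were called in AO over untreated AO, where 12.6% of all contigs were called higher and 3.47% lower. At an FDR under 0.01 with any fold 2 were lower (13.6% of all contigs), at an unadjusted p under 0.05 4 were lower and 0 higher, and DESeq2's Wald test and edgeR's exact test called 0. *kcnab3* DN113107_c0_g3 had 25.0 and 21.2 CPM at 24 hpt against 48.6 and 38.7 CPM in untreated AO (log2 fold change -0.92 ± 0.14, FDR 0.00035), and passed the fold minimum without AO untreated replicate 2 (-1.07) or AO 24 hpt replicate 1 (-1.08). DN113107_c0_g1 had 14.6 and 18.2 CPM against 25.1 and 30.8 CPM (-0.77 ± 0.20, FDR 0.012), and *kcna5* had -0.71 ± 0.16 (FDR 0.0058). For *cacna1d*, the 5 covered contigs lay between -0.39 ± 0.15 and 0.25 ± 0.20, and their 95% intervals together ran from -0.73 to 0.69.

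From 12 to 24 hpt in AO, 0 of 10 contigs were called, where 1.64% of all contigs were called higher and 1.16% lower. By unadjusted p under 0.05, 5 were lower and 0 higher, with 0 calls by DESeq2's Wald test and by edgeR's exact test. *cacna1d* DN118519_c3_g1 had the lowest value, with 5.53 and 5.08 CPM at 24 hpt against 9.16 and 9.68 CPM at 12 hpt (log2 fold change -0.83 ± 0.15, FDR 0.0052). *kcnab3* DN113107_c0_g3 gave -0.68 ± 0.14 (FDR 0.0083), whereas *kcna5* gave -0.09 ± 0.17.

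**Figure D2:**
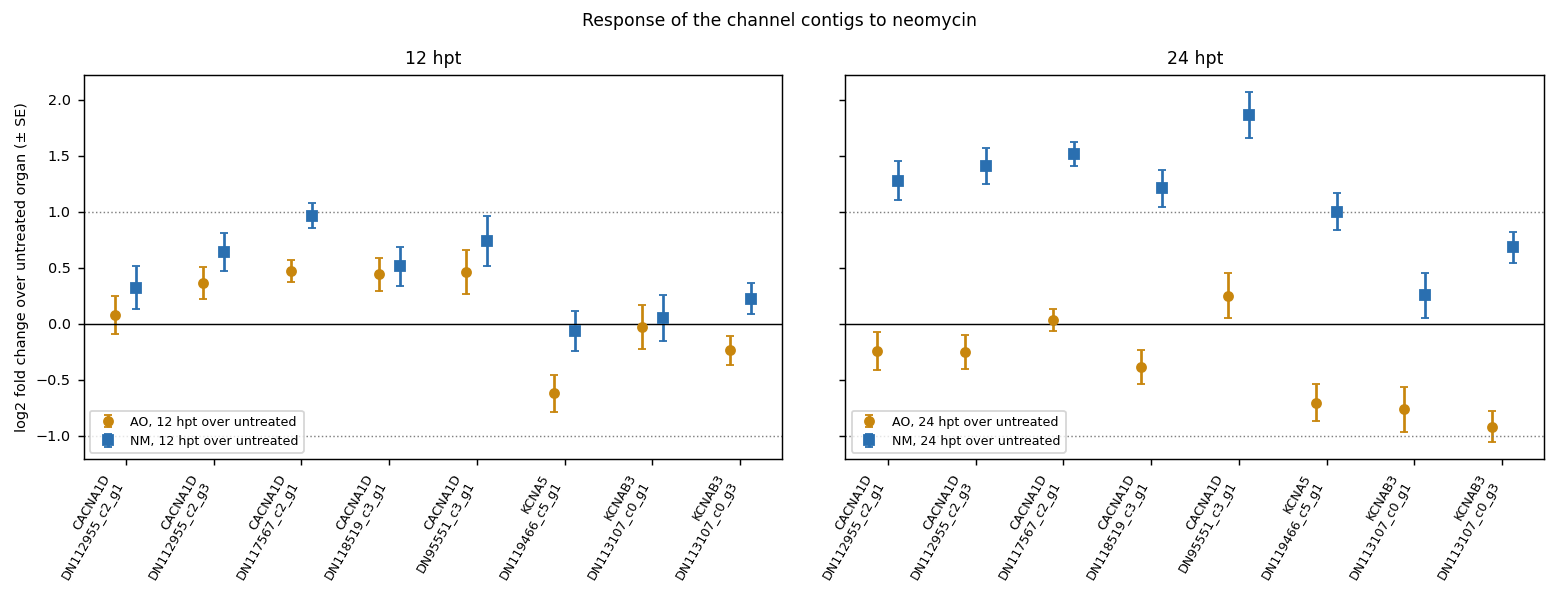
Log2 fold change over the untreated organ (vertical axis, ± SE) of the 8 well covered contigs at 12 hpt (left panel) and 24 hpt (right panel), for AO (ochre circles) and NM (blue squares); dotted lines mark the fold minimum of 1 on the log2 scale. At 24 hpt the AO values lie between -0.92 and 0.25 and the NM values between 0.25 and 1.86.

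By the estimates for the covered contigs, the organs stood in the opposite order at 24 hpt to that at 12 hpt. The change in AO over NM between these times was not tested. At 12 hpt AO was still level with or above NM: *cacna1d* summed to 55.3 and 62.5 CPM in AO against 41.5 and 38.6 CPM in NM, *kcnab3* to 62.1 and 66.7 CPM against 53.0 and 56.6 CPM, and *kcna5* had 7.43 and 5.65 CPM against 5.66 and 6.63 CPM. At 24 hpt all 8 covered contigs had both AO libraries below both NM libraries, with *cacna1d* at 41.1 and 41.1 CPM in AO against 73.1 and 66.7 CPM in NM, *kcna5* at 6.56 and 5.85 CPM against 13.3 and 12.6 CPM, and *kcnab3* at 39.6 and 39.4 CPM against 68.2 and 71.8 CPM. Of the 10 tested contigs 9 were placed so, where 25.7% of all contigs had both AO libraries below both NM libraries at 24 hpt. Marker sums differed between the same libraries: at 24 hpt lens averaged 23.7 CPM in AO and 2235 CPM in NM, muscle 12267 CPM in AO and 274 CPM in NM, and hair cell markers 272 CPM in AO and 368 CPM in NM. Neuron markers averaged 1366 CPM in AO and 1698 CPM in NM at 24 hpt. The part of these markers in the order of the organs was not tested.

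For AO over NM at 12 hpt, 0 of 10 contigs were called, where 2.95% of all contigs were called higher and 0.764% lower; 4 were higher at an unadjusted p under 0.05, and DESeq2's Wald test and edgeR's exact test called 0. The largest log2 fold change of a covered contig was 0.75 ± 0.16 (SE; 95% interval 0.40 to 1.09) for *cacna1d* DN118519_c3_g1, and that of *kcna5* was 0.08 ± 0.18 (-0.32 to 0.48). At 24 hpt, 2 of 10 were called lower in AO and 0 higher, where 0.378% of all contigs were called lower and 3.11% higher. These were *kcna5* (-1.07 ± 0.16, FDR 0.0017) and *cacna1d* DN95551_c3_g1 (-1.04 ± 0.19, FDR 0.0048). At an FDR under 0.01 with any fold, 7 of 10 were lower in AO, where 1.65% of all contigs were. The 2 calls were both lost in a fit on these 2 groups alone (FDR 0.018 and 0.016), and without AO 24 hpt replicate 2, NM 24 hpt replicate 1 or NM 24 hpt replicate 2 the count was 0. Without AO 24 hpt replicate 1, DN95551_c3_g1 was lost and *kcnab3* TRINITY_DN113107_c0_g3 called in its place (-1.05, FDR 0.0054).

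**Figure D3:**
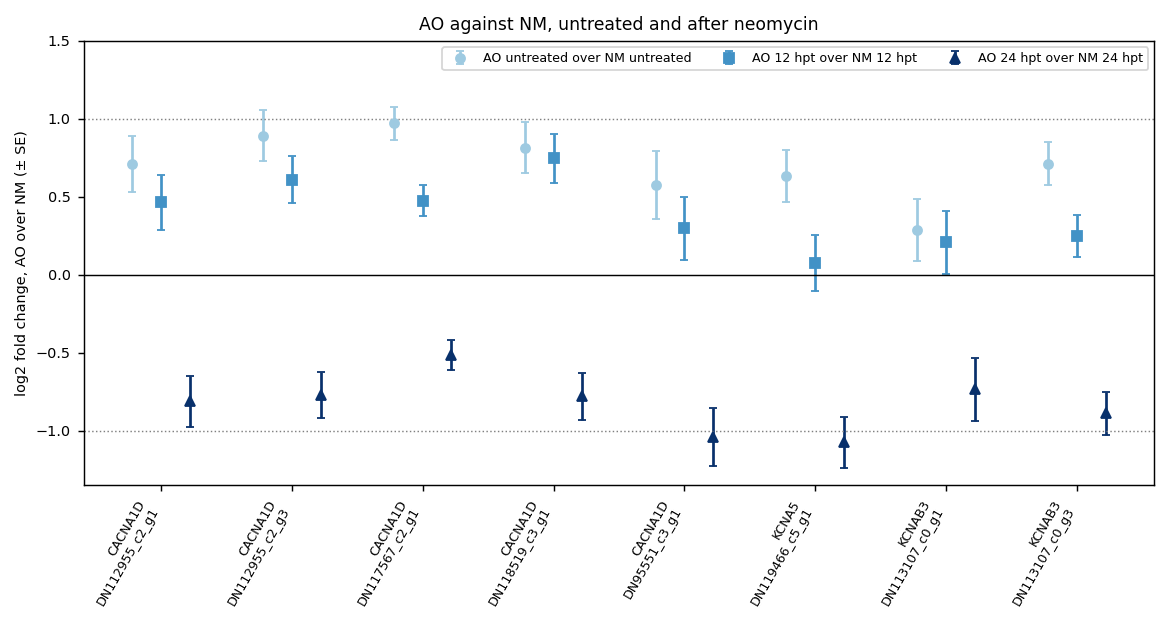
Log2 fold change of AO over NM (vertical axis, ± SE) of the 8 well covered contigs without treatment (light circles), at 12 hpt (squares) and at 24 hpt (dark triangles); dotted lines mark the fold minimum of 1 on the log2 scale. The untreated and 12 hpt values are above 0 in all 8 contigs, at most 0.97, and the 24 hpt values are below 0 in all 8, from -1.07 to -0.51.

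Whether the response to neomycin differed between the organs was tested as an interaction, the log2 fold change over untreated in AO minus that in NM; the interactions at 12 and 24 hpt share the untreated libraries. At 12 hpt 0 of 10 contigs were called, where 0.405% of all contigs were called higher and 1.39% lower; 3 were lower and 0 higher at an unadjusted p under 0.05, and DESeq2's Wald test called 0. At 24 hpt 7 of 10 contigs were called lower and 0 higher, where 5.61% of all contigs were called lower and 2.07% higher. All 7 had a difference between -1.70 and -1.48: *kcna5* -1.70 ± 0.23 (SE, FDR 0.00078), *kcnab3* DN113107_c0_g3 -1.60 ± 0.19 (FDR 0.00035), and the 5 covered *cacna1d* contigs -1.66 ± 0.22 to -1.48 ± 0.14 (FDR 1e-04 to 0.0032). The other *kcnab3* contig, DN113107_c0_g1, had -1.02 ± 0.29 (FDR 0.028) and was called only with the replicate number as a block (-1.02, FDR 0.0032). The median over the tested members was -1.60, against -0.08 over all contigs. In AO, muscle markers averaged 12267 CPM at 24 hpt against 281 CPM untreated, lens markers 23.7 CPM against 168 CPM, and hair cell markers 272 CPM against 516 CPM. In NM, lens markers averaged 2235 CPM at 24 hpt against 3.50 CPM untreated, and liver markers 9.44 CPM against 372 CPM. Neuron markers averaged 1698 CPM at 24 hpt against 149 CPM untreated in NM, and 1366 CPM against 384 CPM in AO. The part of these tissues in the interaction was not tested.

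The estimates of the 2 parts of that difference varied among the 3 genes. For *cacna1d* the NM term was the larger (-0.39 to 0.25 in AO, 1.21 to 1.86 in NM). For *kcna5* the terms were -0.71 in AO and 1.00 in NM, and for *kcnab3* DN113107_c0_g3 -0.92 in AO and 0.68 in NM. The sizes of the terms were not tested against each other. For DN113107_c0_g3 their 95% intervals (-1.22 to -0.62 in AO, 0.38 to 0.99 in NM) overlapped in size. Counts were also summed by gene name before the fit, with each contig that carries no name kept as a feature of its own, over 13876 tested features. The interaction at 24 hpt was then -1.61 ± 0.15 for *cacna1d* (FDR 3.4e-05), -1.75 ± 0.22 for *kcna5* (FDR 0.00019) and -1.40 ± 0.14 for *kcnab3* (FDR 4.9e-05). In that fit *cacna1d* had -0.07 ± 0.11 in AO (FDR 0.62) and 1.54 ± 0.11 in NM (FDR 5e-07) at 24 hpt over untreated, *kcna5* -0.70 ± 0.15 in AO (FDR 0.0027) and 1.04 ± 0.15 in NM (FDR 0.00015), and *kcnab3* -0.85 ± 0.10 in AO (FDR 3.6e-05) and 0.55 ± 0.10 in NM (FDR 0.00075). Among single contigs, DN112955_c2_g1 lost its interaction call with DESeq2's Wald test (FDR 0.012), and DN95551_c3_g1 depended on single libraries: without AO untreated replicate 1, AO 24 hpt replicate 1 or 2, NM untreated replicate 2 or NM 24 hpt replicate 1 its FDR was 0.011 to 0.019.

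Ordered by mean, summed *cacna1d* ran from NM at 24 hpt (69.9 CPM) through AO at 12 hpt (58.9 CPM), untreated AO (43.2 CPM), AO at 24 hpt (41.1 CPM), NM at 12 hpt (40.1 CPM) and untreated NM (25.0 CPM) down to EP (8.57 CPM). Of the neighbours in this order, untreated AO overlapped with AO at 24 hpt, and AO at 24 hpt with NM at 12 hpt. *kcna5* was highest in NM at 24 hpt (12.98 CPM) and then in untreated AO (10.05 CPM), and the 4 groups between 6.54 CPM (AO at 12 hpt) and 6.15 CPM (NM at 12 hpt) overlapped with their neighbours, with EP last at 0.790 CPM. For *kcnab3* untreated AO (71.6 CPM) and NM at 24 hpt (70.04 CPM) overlapped at the top, followed by AO at 12 hpt (64.4 CPM), NM at 12 hpt (54.8 CPM), untreated NM (49.4 CPM), AO at 24 hpt (39.5 CPM) and EP (5.39 CPM).

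The 3 sparse *cacna1d* contigs added little to these sums, each at most 5.81% of the summed *cacna1d* CPM in any of the 12 organ libraries. TRINITY_DN105718_c2_g1 had 0 counts in untreated NM and in EP, 20.6 counts over both NM libraries at 24 hpt, and 7.10, 18.1 and 15.6 counts in untreated AO, AO at 12 hpt and AO at 24 hpt. With 3 counts over both libraries as the floor, it was at least 6.17-fold higher in NM at 24 hpt than in untreated NM; its FDR of 0.013 was not a call, but without NM 12 hpt replicate 1 or 2 it was called (FDR 0.0047 and 0.0046). TRINITY_DN100753_c3_g4 ranged from 0 to 3.64 CPM, with its highest value in 1 library of AO at 12 hpt and 0.944 CPM in the other, and it was called in 0 of the 17 contrasts, with 0 at an unadjusted p under 0.05. TRINITY_DN52149_c0_g1, which was not tested, ranged from 0 to 0.949 CPM, with 0.888 and 0.925 CPM in NM at 24 hpt against 0 and 0.475 CPM in untreated NM.

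Within each name, the covered contigs kept similar shares across the organ libraries. DN117567_c2_g1 held 24.1% to 32.9% of summed *cacna1d* CPM in the 12 organ libraries, DN112955_c2_g3 15.8% to 21.0%, and DN95551_c3_g1, whose share varied most, 12.7% to 21.995%. DN113107_c0_g3 held 52.2% to 65.9% of *kcnab3* and DN113107_c0_g1 the rest. Contigs of other calcium channel genes share an assembly component with *cacna1d*, and reads could have been split among them. The nearest case, *cacna1c* TRINITY_DN112955_c2_g2, had a mean of 30.8 CPM in EP and 0.753 to 15.8 CPM in the organ groups, and was lowest in untreated NM. Read sharing between these contigs was not tested.

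The ratio of *cacna1d* to *kcnab3* was higher at each later time in both organs, while the ratios to *kcna5* were highest on average at 12 hpt. *cacna1d* per *kcnab3*, as the ratio of summed CPM, was 0.628 and 0.577 in untreated AO, 0.891 and 0.937 at 12 hpt, and 1.04 and 1.04 at 24 hpt. In NM the same ratio was 0.604 and 0.427 without treatment, 0.783 and 0.682 at 12 hpt, and 1.07 and 0.929 at 24 hpt. In both organs the pairs of this ratio did not overlap between times. *cacna1d* per *kcna5* averaged 4.30, 9.26 and 6.64 in AO (untreated, 12 hpt, 24 hpt) and 3.86, 6.58 and 5.39 in NM. *kcnab3* per *kcna5* averaged 7.16, 10.08 and 6.38 in AO, and 7.59, 8.95 and 5.40 in NM. In untreated EP *cacna1d* per *kcnab3* was 1.84 and 1.36, and *cacna1d* per *kcna5* averaged 11.02, both above the mean of every organ group. *kcnab3* per *kcna5* averaged 7.13 there. The later organ values of *cacna1d* per *kcnab3* thus lay nearer to that of EP. None of these ratios was tested.

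Set against the hair cell gene *otof*, which encodes the calcium sensor otoferlin of the ribbon synapse, all 3 names had higher mean ratios after neomycin in both organs. This ratio was chosen after the values had been seen and was not tested. *cacna1d* per *otof* was 0.181 and 0.173 in untreated AO, 0.460 and 0.522 at 12 hpt, and 0.598 and 0.580 at 24 hpt. In NM it was 0.175 and 0.171, 0.368 and 0.336, and 0.564 and 0.488 at the same times. AO and NM overlapped in it without treatment, and AO was above NM at both later times. *kcna5* per *otof* averaged 0.0411, 0.0545 and 0.0891 in AO (untreated, 12 hpt, 24 hpt) and 0.0451, 0.0540 and 0.0975 in NM. *kcnab3* per *otof* averaged 0.294, 0.537 and 0.566 in AO, and 0.345, 0.482 and 0.526 in NM, at those times. In untreated EP *cacna1d* per *otof* was 0.489 and 0.657, close to the values of both organs at 24 hpt. There *kcna5* per *otof* averaged 0.0517 and *kcnab3* per *otof* 0.374, below both organs at 24 hpt. The main *otof* contig TRINITY_DN119677_c4_g1 averaged 125, 55.2 and 28.9 CPM in AO (untreated, 12 hpt, 24 hpt) and 66.5, 52.2 and 56.9 CPM in NM.

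**Figure D4:**
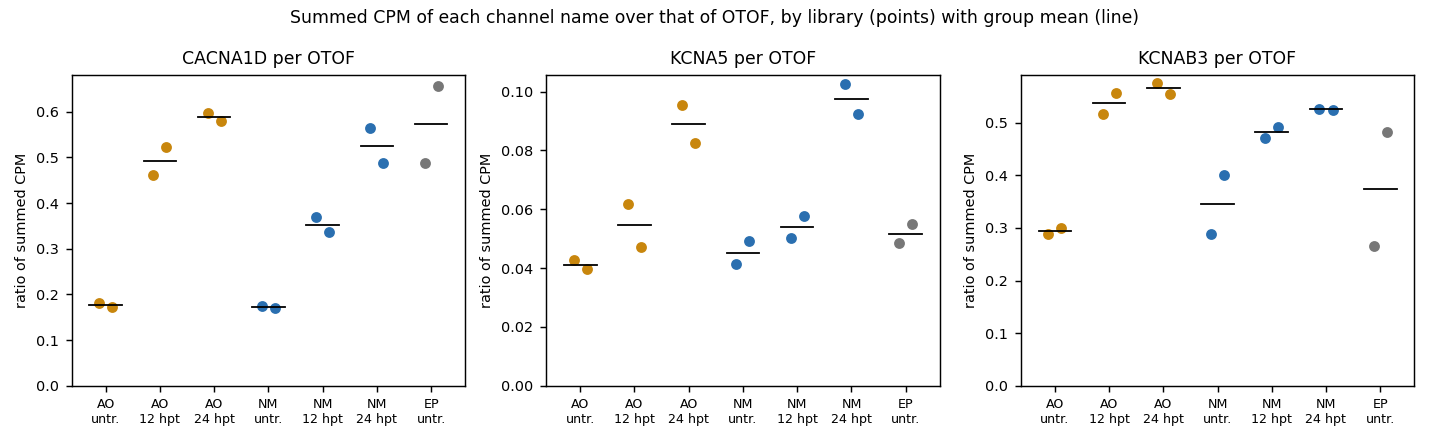
Ratio of the summed CPM of each channel name to the summed CPM of *otof* (vertical axes, from 0) in each library (points) with the group mean (line), for AO (ochre), NM (blue) and EP (grey). At 24 hpt the mean ratio of *cacna1d* is 0.589 in AO and 0.526 in NM, against 0.177 and 0.173 without treatment. In EP it is 0.573.

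Other subunits of the same channel families moved differently in AO. Of the other shaker family pore subunits (*kcna1*, *kcna2*, *kcna3*, *kcna4* and *kcna10*), 6 of 8 tested contigs rose in AO at 24 hpt and 7 of 8 in NM at 24 hpt, with 0 lower in either organ, where 12.6% of all contigs rose in AO and 16.1% in NM. Their median log2 fold change was 1.99 in AO and 4.03 in NM, against -0.01 in AO and -0.03 in NM over all contigs. *kcna3* TRINITY_DN108207_c0_g3 averaged 20.1 CPM in AO at 24 hpt against 5.34 CPM in untreated AO (log2 fold change 1.92 ± 0.19) and 26.2 CPM in NM at 24 hpt against 1.42 CPM in untreated NM (4.20 ± 0.24). Of the other beta subunits, *kcnab1* rose in AO (1.29 ± 0.26) and in NM (1.47 ± 0.28) at 24 hpt, and *kcnab2* rose in NM (1.23 ± 0.12). In AO at 24 hpt, 7 contigs of these relatives thus rose, while *kcna5* and the *kcnab3* contigs had negative log2 fold changes that were not called. The other pore subunits had a mean sum of 40.6 CPM in EP, above untreated AO (18.3 CPM) and untreated NM (6.59 CPM). The other beta subunits had 9.02 CPM in EP, below untreated AO (14.1 CPM) and untreated NM (12.3 CPM). Neuron markers averaged 1366 CPM in AO at 24 hpt against 384 CPM in untreated AO, and 1698 CPM in NM at 24 hpt against 149 CPM in untreated NM. Muscle markers averaged 12267 CPM in AO at 24 hpt against 281 CPM in untreated AO, and 274 CPM in NM at 24 hpt against 81.5 CPM in untreated NM. The part of these markers in the rises was not tested. Whether any of these relatives form channels with *kcna5* or *kcnab3* was not tested.

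Among the accessory subunits of calcium channels (beta and alpha-2-delta), which assist their assembly and transport, 9 of 13 contigs rose in AO at 24 hpt and 10 of 13 in NM at 24 hpt, with 0 lower. Over all contigs, 12.6% rose and 3.47% fell in AO at 24 hpt, and 16.1% rose and 5.01% fell in NM, which is the background for each count of this paragraph. *cacna2d2* TRINITY_DN118689_c4_g1 averaged 22.8 CPM in AO at 24 hpt against 9.42 CPM in untreated AO (log2 fold change 1.27 ± 0.09), and 28.8 CPM in NM at 24 hpt against 3.87 CPM in untreated NM (2.91 ± 0.10). The other L-type pore subunits had 4 of 7 contigs higher in AO and 6 of 7 in NM at 24 hpt, among them the skeletal muscle channel *cacna1s* in AO (11.01 CPM at 24 hpt against 0.0374 CPM untreated). Of the calcium sensors that bind such channels, 2 of 4 contigs, both *cabp1*, rose in each organ at 24 hpt. Calcium-activated potassium channels had 0 of 5 contigs called in AO and 1 higher and 1 lower in NM, both *kcnma1*, at 24 hpt. Of 42 contigs of ribbon synapse genes, 15 rose and 6 fell in AO at 24 hpt, and 25 rose and 0 fell in NM at 24 hpt. In EP the accessory subunits had a mean sum of 99.0 CPM and the other L-type pore subunits 62.2 CPM. Untreated AO had 64.7 and 6.80 CPM and untreated NM 37.5 and 2.99 CPM, in the same order. The calcium sensors and ribbon synapse genes were lower in EP than in both untreated organs, and the calcium-activated potassium channels lay between these. From untreated AO to AO at 24 hpt, muscle markers went from a mean of 281 to 12267 CPM and neuron markers from 384 to 1366 CPM. From untreated NM to NM at 24 hpt, neuron markers went from 149 to 1698 CPM and muscle markers from 81.5 to 274 CPM. The part of muscle or nerve tissue in the counts of this paragraph was not tested.

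Markers of other cell types moved between the same groups. All 8 of 8 lens contigs were called higher in NM at 24 hpt than in untreated NM, by the sums given above, where 16.1% of all contigs were. In AO the lens sum ranged from 162 to 174 CPM untreated, 4.59 to 5.32 CPM at 12 hpt and 21.2 to 26.1 CPM at 24 hpt. Only 1 of the 8 lens contigs (*cryaa*) had 0 counts in untreated NM. A list of 23 retina markers, added after the lens values had been seen, matched 11 symbols and summed to 44.4 and 46.4 CPM in NM at 24 hpt, against 48.7 and 49.2 CPM in untreated NM.

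Neuron markers rose in both organs, with 22 of 27 tested contigs called higher and 0 lower in AO and 24 higher and 1 lower in NM at 24 hpt. Over all contigs, 12.6% were called higher and 3.47% lower in AO at 24 hpt, and 16.1% higher and 5.01% lower in NM. These shares are the background for each count of this paragraph. Their sum ranged from 368 to 401 CPM in untreated AO, 906 to 935 CPM at 12 hpt and 1329 to 1402 CPM at 24 hpt, and from 141 to 157 CPM in untreated NM, 477 to 484 CPM at 12 hpt and 1662 to 1734 CPM at 24 hpt. Muscle markers summed to 12228 and 12306 CPM in AO at 24 hpt, against 272 and 290 CPM in untreated AO, where 51 of 58 contigs rose, and to 267 and 281 CPM in NM at 24 hpt, against 81.2 and 81.8 CPM in untreated NM. At 12 hpt the muscle sum was 5259 and 5366 CPM in AO and 7971 and 8021 CPM in NM, so it was high in both organs at 12 hpt and, of the 24 hpt groups, in AO alone. Liver markers summed to 9.40 and 9.48 CPM in NM at 24 hpt, against 372 CPM in both libraries of untreated NM, with 8 of 9 contigs called lower. Hair cell markers summed to 272 CPM in both AO libraries at 24 hpt, against 502 and 531 CPM in untreated AO (3 of 38 contigs higher, 12 lower). In NM they summed to 358 and 379 CPM at 24 hpt, against 384 and 389 CPM untreated (8 of 38 higher, 1 lower). The *otof* contigs TRINITY_DN119677_c4_g1 and TRINITY_DN117276_c1_g1 of this list averaged 125 and 58.5 CPM in untreated AO, and 28.9 and 14.3 CPM in AO at 24 hpt. Epithelium markers were lowest in NM at 24 hpt, at 11555 and 12122 CPM, against 22842 and 23489 CPM in untreated NM. The part of lens, nerve, muscle or liver tissue in the channel values was not tested, and since both NM libraries at 24 hpt carry the lens signal, no NM value at 24 hpt could be had without it.

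**Figure D5:**
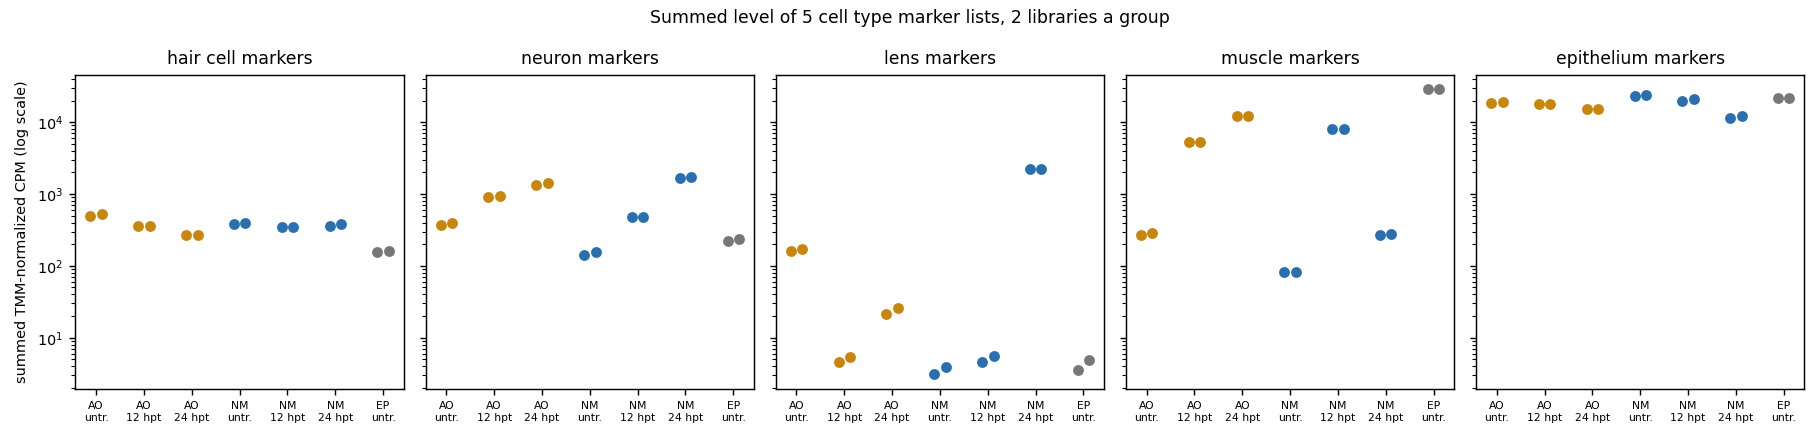
Summed TMM-normalized CPM of the markers of hair cells, neurons, lens, muscle and epithelium (vertical axis, log scale) in each of the 14 libraries, for AO (ochre), NM (blue) and EP (grey). The lens sum of NM at 24 hpt (2234 and 2237 CPM) stands above that of every other group, and the neuron sum of both organs is higher at 24 hpt than without treatment.

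The contigs whose pattern was most like that of a channel were found by the root mean square difference of centred log2(CPM + 1) over the 14 libraries, among 18883 annotated contigs. For summed *cacna1d* they were *tmem229b* (0.209), *slc7a14* (0.211), *sox1a* (0.215), *rims2* (0.224), which encodes a ribbon synapse scaffold protein, and *mapre3* (0.240). *rims2* TRINITY_DN103813_c1_g1 averaged 8.75, 11.6 and 11.3 CPM in AO (untreated, 12 hpt, 24 hpt) and 3.87, 6.70 and 15.2 CPM in NM. For *kcna5* they were *insm2* (0.247), *lrtm2* (0.288), *elovl2* (0.294), *slc7a14* (0.323) and *trim36* (0.336). The most like *kcnab3* were *stard10* (0.215), *apba1* (0.319), *slc17a8* (0.338), which encodes the vesicular glutamate transporter of hair cells, another *rims2* contig (0.357) and *six3* (0.358).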

How the data were processed

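The 14 libraries were mRNA libraries made from total RNA of AO, NM and EP, grouped by the organ, treatment and time in the labels. Per the labels and the methods of the study, the authors made libraries with a TruSeq kit that does not mark strand. They processed reads with CASAVA 1.8.2 and Trimmomatic 0.38 and assembled all libraries with Trinity. They named contigs by Swiss-Prot or sterlet protein match. The unscaled expected counts from RSEM that they deposited are per Trinity gene, called a contig here. For the aligner and for RSEM itself, a version is not given in the sources used here. RSEM divides a read among contigs that match it equally, so similar contigs share counts. Of 23448 contigs, 22647 carry a name; all 14 columns were used.

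After rounding, counts went into 1 quasi-likelihood model of 7 groups in edgeR 4.0.16 under R 4.3.3 (TMM scaling, low contigs removed by filterByExpr, 17 contrasts, 21978 contigs tested, common biological coefficient of variation 0.121), checked on simulated data. The study's thresholds were kept and its exact test was an alternative, since the interaction needs 1 model. CPM in the text come from unrounded counts. Other alternatives were DESeq2 1.42.0 (Wald test, size factors), other filters, fits on the groups compared, counts summed by name, the replicate number as a block, and each library left out. Totals of 7121038 to 10067958 counts set the precision: a floor of 3 counts covers counting error only.

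Members are every contig of the 3 names. Of the gene lists, at most 3 called contigs per list and organ are named, with the 5 contigs most like each channel in pattern (mean CPM of at least 2). Members and lists were chosen with earlier results of these data known; the retina list and the ratio to *otof* were added after values had been seen.

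Replicate numbers come from the labels. After group means were removed, same-numbered libraries correlated over 0.1 in 21 of 21 pairs of groups (0.197 to 0.307, median 0.271). What a number stands for was not stated. Replicate 2 had the larger total of counts in every group but untreated AO, and the part of depth in these correlations was not tested. The main model had no term for the replicate number, which entered as a block in an alternative fit.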

Additional observations from a re-analysis of the deposited data

Results flagged for a closer look

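The difference between the organs in the response at 24 hpt (log2 fold change over untreated in AO minus that in NM) passed the threshold of the quasi-likelihood test of edgeR (Benjamini-Hochberg adjusted) for 7 contigs of the 3 channel genes. For *cacna1d* it was -1.52 (TRINITY_DN112955_c2_g1), -1.66 (TRINITY_DN112955_c2_g3), -1.48 (TRINITY_DN117567_c2_g1), -1.59 (TRINITY_DN118519_c3_g1) and -1.61 (TRINITY_DN95551_c3_g1). For *kcna5* (TRINITY_DN119466_c5_g1) it was -1.70, and for *kcnab3* (TRINITY_DN113107_c0_g3) -1.60. Marker sums moved in the same libraries. Lens averaged 2235 CPM in NM at 24 hpt against 3.50 CPM in untreated NM, and 23.7 CPM in AO at 24 hpt against 168 CPM in untreated AO. In AO, muscle averaged 12267 CPM at 24 hpt against 281 CPM untreated, and hair cell markers 272 CPM against 516 CPM. Neuron markers averaged 1698 CPM at 24 hpt against 149 CPM untreated in NM, and 1366 CPM against 384 CPM in AO. The part of these markers in the differences was not tested.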

How the results depend on the processing

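The values rated were the counts of calls in the 17 contrasts and some fold changes. Those fold changes were of the 8 well covered contigs in NM at 24 hpt over untreated NM and in the interaction at 24 hpt. Of the 238 such values recomputed under other settings with all libraries, 218 were rated unchanged, and none changed sign past a threshold. With 1 library left out, 445 of 462 values were rated unchanged, and again none changed sign past a threshold. Fold changes in the other contrasts were not rated, and some small ones crossed 0 with 1 library left out. For *kcna5* in NM at 12 hpt over untreated NM the log2 fold change then ran from -0.20 to 0.04. A contig's fold change was rated unchanged if it kept its direction and its side of the threshold. A count of calls was rated unchanged if it stayed at 0 or at a similar size, so single contigs could change side within it. Summing counts by gene name left 3 features to test, of which it called 2 in NM at 24 hpt over untreated NM, 1 in NM at 24 over 12 hpt, 1 in AO over NM at 24 hpt, 3 in each of the 6 comparisons with EP and 3 in the interaction at 24 hpt. The share of all 13876 features called in that fit was not computed, so these counts cannot be set against a background. In AO over NM at 24 hpt DESeq2's Wald test called 1 contig, and a fit on the groups compared called 0 there and 5 in untreated NM over EP. DN112955_c2_g1 lost its interaction call at 24 hpt with DESeq2's Wald test (FDR 0.012) and DN95551_c3_g1 in the fit on the groups compared (FDR 0.011). With the replicate number as a block, DN113107_c0_g1 gained a call in the interaction at 24 hpt (-1.02, FDR 0.0032), and the block changed no other call. With 1 library left out, calls ranged from 0 to 1 in AO at 24 hpt over untreated AO and in NM at 12 hpt over untreated NM, 5 to 6 in NM at 24 hpt over untreated NM, 1 to 2 in NM at 24 over 12 hpt, 0 to 2 in untreated AO over untreated NM, 0 to 2 in AO over NM at 24 hpt, 7 to 8 in untreated NM over EP, 8 to 9 in AO at 12 hpt and in NM at 24 hpt over EP, and 6 to 7 in the interaction at 24 hpt. The causes were not tested. A group left with 1 library is assumed to vary like the others. Tests speak of 1 pool per condition, and the 3 sparse *cacna1d* contigs are limited by depth.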
